A study of Mus musculus with 6 samples.

Results

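The mir-181 family was examined in the small RNA of mouse osteoblasts, bone marrow cells and muscle cell-derived extracellular vesicles (EVs). Its members were the 6 entries named mir-181a-1, mir-181a-2, mir-181b-1, mir-181b-2, mir-181c and mir-181d, chosen by name from the 1006 precursor entries of the deposited table, and all 6 had counts in every library. There were 6 libraries in 4 conditions. OB was 1 library of mouse primary osteoblasts, and BM was 1 library of primary bone marrow cells. Myo-EVs were 2 libraries of the vesicles that C2C12 cells, a mouse myoblast line, released into the medium without mechanical stress, and FFSS-Myo-EVs were 2 libraries of vesicles from C2C12 cells exposed to fluid flow shear stress (FFSS) on an orbital shaker for 48 hr.

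The labels gave all 6 libraries the same mixed C57BL/6J and 129/SvJ background, and no allele or agent distinguished them. The methods give this background to the mice only, and name no strain for the C2C12 cells, a line obtained from ATCC. A strain shared by the vesicles and the bone cells is thus not established. The labels put the OB and BM donors at 8 to 10 weeks of age, whereas the methods describe osteoblasts pooled from 5 mice at 3 to 5 days of age and bone marrow from 1 mouse of 8 weeks. The labels' growth protocol has the same words for every library and speaks of vitamin D or dexamethasone, not of FFSS, so the FFSS groups rest on the titles and the stress label. The methods describe medium with EV-depleted bovine serum for the C2C12 cells. Nothing in the sources states whether the replicate EV libraries came from separate cultures, so their spread may be technical.

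A miRNA is cut from a hairpin precursor, which can yield a 5p and a 3p strand, and bases 2 to 8 of the strand, the seed, pair with target mRNAs. The mir-181 genes lie in 3 pairs of neighbours, a-1 with b-1, a-2 with b-2, and c with d, and neighbours of this kind are commonly made from one primary transcript. The family is known for its part in lymphocyte development and T cell receptor sensitivity, and mir-181a has been described to rise when myoblasts differentiate. The comparison across conditions asks how the family in the vesicles stands beside the family in the bone cells that could receive them, and whether FFSS changes it.

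The 5p strands are shown because their seed defines the family and because the copies on different chromosomes cannot be told apart by them. Each is written 5′ to 3′ as RefSeq gives it for GRCm38.p6, with the seed in capitals.
miR-181a-5p: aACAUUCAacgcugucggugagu
miR-181b-5p: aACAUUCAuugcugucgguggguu
miR-181c-5p: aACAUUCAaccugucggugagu
miR-181d-5p: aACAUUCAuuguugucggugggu

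All 4 sequences carry the seed ACAUUCA, and no mature miRNA outside the 6 genes had it in the RefSeq table. Counted from the 5′ end, miR-181b-5p differs from miR-181a-5p by A9U, C10U and A21G, and is 1 base longer, so 3 of the shared positions differ and none of them lies in the seed. Compared with miR-181b-5p, miR-181d-5p has the single change C12U and is 1 base shorter. In miR-181a-5p, the mir-181a-1 and mir-181a-2 genes give the same 23 bases, and in miR-181b-5p the mir-181b-1 and mir-181b-2 genes give the same 24 bases.

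The 3p strands are shown because only they, and the loop, separate the copies. Their capitals again mark bases 2 to 8.
miR-181a-1-3p: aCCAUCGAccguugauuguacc
miR-181a-2-3p: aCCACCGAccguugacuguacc
miR-181b-1-3p: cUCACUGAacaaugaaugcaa
miR-181b-2-3p: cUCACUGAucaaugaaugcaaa
miR-181c-3p: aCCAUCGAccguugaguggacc
miR-181d-3p: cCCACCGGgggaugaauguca

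The 3p strand of mir-181a-2 differs from that of mir-181a-1 by U5C and U16C, the first of which lies in the seed. The 3p strands of mir-181b-1 and mir-181b-2 share their seed and differ by A9U and in length. The deposited table gives 1 count per precursor and does not list the 5p and 3p strands apart. How the authors assigned a read that matches both copies is not given in the sources used here. A 5p read therefore cannot be placed in mir-181a-1 or mir-181a-2, or in mir-181b-1 or mir-181b-2, by its sequence, the values of copies are uncertain as separate measurements, and a sum over copies would hold a read again if it was counted for both. Copies of some other miRNAs had nearly equal normalized values. mir-26a-1 and mir-26a-2 had 12482.4 and 12508.3 in FFSS-Myo-EV replicate 1, and both had 11838.2 in replicate 2. Others differed, as did mir-24-1 and mir-24-2 with 2631.0 and 3492.7 in FFSS-Myo-EV replicate 1. Whether shared reads were counted for both copies was not tested.

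In GRCm38, mir-181a-1 and mir-181b-1 lie on the plus strand of chromosome 1, with the 5p strands at chr1:137966468-137966490 and chr1:137966650-137966673. In the GENCODE M21 annotation both lie in an intron of the non-coding transcript Gm4258 on the same strand, and mir-181b-1 also lies in an exon of the lincRNA A430106G13Rik. The pair on chromosome 2, mir-181a-2 at chr2:38852741-38852763 and mir-181b-2 at chr2:38853845-38853868 on the plus strand, lies inside the gene of the nuclear receptor Nr6a1, which is transcribed from the opposite strand, and mir-181b-2 also lies across from an exon of the unclassified gene Gm44144. The third pair, mir-181c at chr8:84178924-84178945 and mir-181d at chr8:84178759-84178781 on the minus strand, lies in an intron of Nanos3, which runs on the same strand. The mature regions of the mates are 120, 1038 and 103 bases apart, in the same order.

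The libraries held between 2414132 and 6092460 counts. The normalized expression values were made by the authors from the counts with 1 constant per library, between 0.397 and 1.20, and they are used here unless another scale is named. Over 5 miRNAs of blood cells fixed as bone marrow markers (mir-142a, mir-223, mir-150, mir-144 and mir-451a), the summed value was 20348 in BM, 176 in OB and between 10.8 and 50.9 in the EV libraries. Over the 5 osteoblast markers it was 469574 in OB, 20791 in BM and between 326803 and 428560 in the EVs, and most of it was mir-143 in the EVs (274482 to 372549, against 269506 in OB). The sum was thus well below OB in BM but not in the EVs, although mir-199a-1 and mir-199a-2, at 87356 and 88096 in OB, were between 11324 and 16350 in the EVs. Of the 6 myoblast markers, mir-206 carried nearly all of the sum, at 1969 and 2365 in the vesicles without FFSS, and 2610 and 2605 with FFSS, against 91.7 in OB and 7.9 in BM. Of the mir-1a entries, markers of differentiated muscle, mir-1a-1 was listed at 0 in all 4 EV libraries and mir-1a-2 at 0 to 6.0.

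The family made up a small share of the counts in every condition, highest in BM. It took 0.200% of the counts in OB, 0.309% in BM, 0.164% and 0.186% in the vesicles without FFSS, and 0.165% and 0.177% with FFSS. On the normalized scale the 6 entries summed to 5736 in OB, 7471 in BM, 4725 and 5369 in the vesicles without FFSS, and 4993 and 5210 with FFSS. BM was 1.30 times OB (95% interval 1.27 to 1.33, exact and for counting error only), and the Myo-EV mean was 0.880 of OB and 0.676 of BM. The interval takes each count as a separate read, and is too narrow if reads shared by copies were counted for both. The order BM, OB, EVs did not depend on the scaling, with BM over OB at 1.54 by library totals and at 1.12 after median-of-ratios scaling, and Myo-EVs over OB at 0.717 after the latter. OB and BM have 1 library each and no replicate error, and in cells of several types a lower level may mean fewer cells that make the miRNA or less of it per cell, which cannot be told apart.

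Within the family, the members changed places between cells and vesicles. The mir-181a copies were the leading members in both bone cell libraries and lay lower in the vesicles, whereas mir-181b-1 was the leading member in all 4 EV libraries.

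mir-181a-1 had normalized values of 1908 in OB and 2696 in BM, 896 and 1089 in the vesicles without FFSS, and 1087 and 1129 with FFSS. Among the 1006 entries it ranked 87 in OB and 68 in BM, and between 109 and 115 in the EVs. The highest EV library was below OB, and the order was BM, then OB, then both EV groups, which overlapped. mir-181a-2 had 1454 in OB, 2450 in BM, 815 and 986 in the vesicles without FFSS, and 946 and 1011 with FFSS, in the same order and again with overlapping EV groups. The ratio of BM to OB was 1.41 (1.36 to 1.47) for mir-181a-1 and 1.69 (1.61 to 1.76) for mir-181a-2. Myo-EVs over BM was 0.368 for both copies, with single libraries between 0.332 and 0.404.

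mir-181b-1 went the other way. It had 1033 in OB and 889 in BM, against 1622 and 1744 in the vesicles without FFSS, and 1661 and 1820 with FFSS. Every EV library was above both cell libraries, by 1.63-fold over OB and 1.89-fold over BM for the Myo-EV mean, and the EV groups overlapped. The direction held by library totals, with 1.62 and 1.59, and after median-of-ratios scaling, with 1.33 and 1.80. OB and BM stood close, and their order turned with the scaling, since BM over OB was 0.861 on the authors' scaling and 1.02 by library totals.

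mir-181b-2 varied least of the abundant members on the authors' scaling. It had 1043 in OB, 1007 in BM, 1181 and 1317 in the vesicles without FFSS, and 1043 and 1017 with FFSS. The Myo-EV libraries were the highest, and the OB, BM and FFSS-Myo-EV values lay within a narrow band. Over OB, the Myo-EV mean was 1.20, but 0.976 after median-of-ratios scaling, so no order between these conditions can be read. BM over OB was 0.965 (0.909 to 1.02) on the authors' scaling and 1.14 by library totals.

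The members on chromosome 8 were the lowest. mir-181d had 269.5 in OB, 374.5 in BM, 196 and 223 in the vesicles without FFSS, and 238 and 218 with FFSS, so that it took between 4.14% and 5.01% of the family's counts in every library. Its order was the same as for mir-181a, with Myo-EVs at 0.776 of OB and 0.559 of BM. mir-181c rested on 53 counts in OB and 138 in BM, 15 and 9 in the vesicles without FFSS, and 18 and 14 with FFSS, with normalized values of 29.3, 54.8, 15.1, 10.8, 17.9 and 15.5, respectively. BM over OB was 1.87 (1.35 to 2.62) for mir-181c, and the 4 EV libraries lay below both cells.

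**Figure D1:**
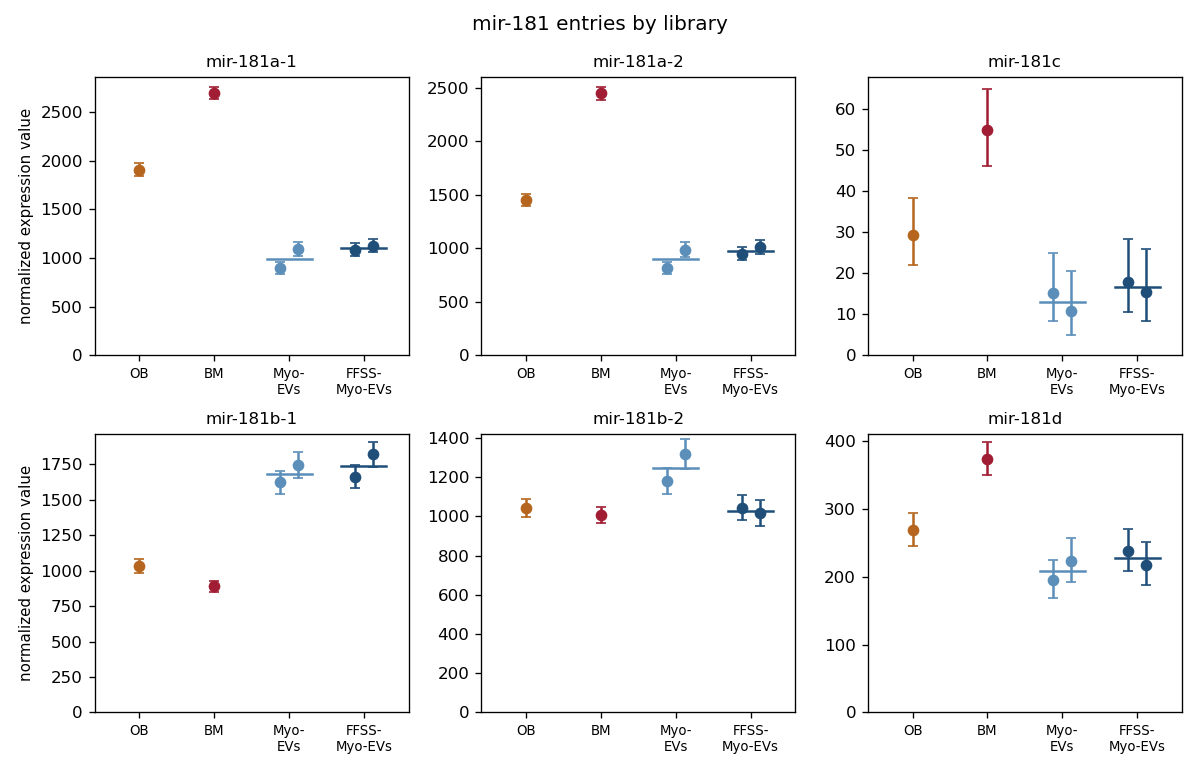
Normalized expression value of each mir-181 entry (linear axis from 0, its own scale in each panel) in the 6 libraries, with OB and BM as 1 library each and the EV groups as 2 libraries each. Points are libraries, bars are exact 95% intervals for counting error only, and horizontal lines are the means of the EV groups. mir-181a-1, mir-181a-2, mir-181c and mir-181d were highest in BM and lowest in the EVs, whereas mir-181b-1 was 889 to 1033 in the cells and 1622 to 1820 in the EVs.

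The ratios were set beside those of the 443 entries with a mean normalized value of at least 10 over the 6 libraries, which held all 6 members. In Myo-EVs over BM, 3 of 6 members were more than 2-fold lower (mir-181a-1, mir-181a-2 and mir-181c), where 35.2% of all entries were, and the median ratio was 0.463 over the members and 1.53 over all entries. In FFSS-Myo-EVs over BM the same 3 were more than 2-fold lower, where 30.5% of all entries were. Over OB, only mir-181c passed in Myo-EVs (1 of 6, against 37.2% of all entries) and no member passed in FFSS-Myo-EVs (against 31.4%). In BM over OB, no member was more than 2-fold lower (against 32.7% of all entries). No member was more than 2-fold higher in any of the 5 comparisons, where 26.4% of all entries were in BM over OB, 35.7% and 45.6% in Myo-EVs over OB and over BM, and 35.4% and 46% in FFSS-Myo-EVs over OB and over BM. These counts are for the authors' scaling and several members lay near the limit. After median-of-ratios scaling, mir-181a-1 was at 0.424 of OB in Myo-EVs and 0.441 in FFSS-Myo-EVs, where mir-181c was at 0.435. By library totals, mir-181d was at 0.468 of BM in Myo-EVs and 0.494 in FFSS-Myo-EVs, and mir-181c was at 2.21 in BM over OB.

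The exchange between mir-181a and mir-181b was seen most directly in their ratio within a library, which no scaling can move. Both copies of mir-181a together had 1.62 times the counts of both copies of mir-181b in OB (95% interval 1.55 to 1.69) and 2.71 times in BM (2.63 to 2.81). In Myo-EVs the same ratio was 0.611 (0.575 to 0.649) and 0.678 (0.637 to 0.721), and in FFSS-Myo-EVs it was 0.752 (0.710 to 0.797) and 0.754 (0.711 to 0.801). All 4 EV libraries were thus below 1 and both cell libraries above it. Of the family's counts, mir-181a took 58.6% in OB, 68.9% in BM and between 36.2% and 41.1% in the EVs, whereas mir-181b took 36.2%, 25.4% and between 54.2% and 59.3%, respectively. OB and BM are single libraries, so this difference carries no test. Ligation and amplification depend on sequence, so the ratio in 1 library is not a ratio of molecules. A factor that is constant between libraries made with the same kit would drop out of a comparison between them. Whether it was constant between cell and vesicle RNA was not tested. The cell libraries and the EV libraries came from different cells, and C2C12 cells themselves are not analysed here, so vesicle and cell of origin cannot be told apart.

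**Figure D2:**
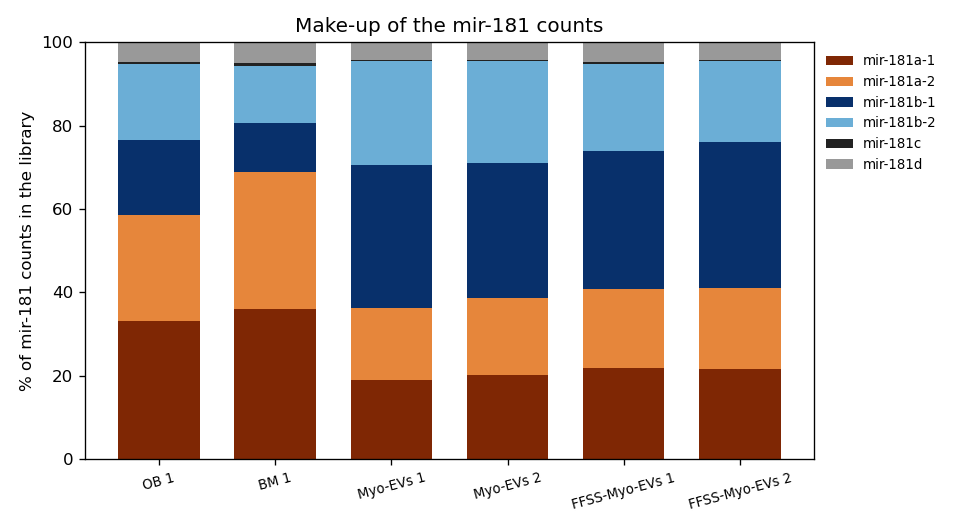
Share of each entry in the mir-181 counts of a library (stacked bars, % of the family's counts, 6 libraries). The mir-181a copies (brown and orange) took 58.6% in OB and 68.9% in BM and at most 41.1% in the EV libraries, where the mir-181b copies (blues) took 54.2% or more.

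The mates of a cluster did not keep a fixed ratio across the libraries. For mir-181a-1 over mir-181b-1, the ratio of counts was 1.85 in OB and 3.03 in BM, 0.553 and 0.624 in the vesicles without FFSS, and 0.654 and 0.620 with FFSS. From the lowest to the highest library it ranged over 5.49-fold, or 2.46 on the log2 scale. For mir-181a-2 over mir-181b-2, the ratio was 1.39 in OB, 2.43 in BM, 0.690 and 0.748 in the vesicles without FFSS, and 0.907 and 0.995 with FFSS, a range of 3.52-fold. Both clusters thus moved the same way, with BM highest, OB next and the EVs lowest, although their 5p reads are shared between the clusters and the pairs are not independent measurements. For mir-181c over mir-181d, the ratio was 0.109 in OB (0.0802 to 0.144), 0.146 in BM (0.122 to 0.175), 0.0769 and 0.0484 in the vesicles without FFSS, and 0.0753 and 0.0711 with FFSS. Its range was 3.02-fold, but the intervals of the EV libraries overlapped that of OB, and 1 EV library had only 9 counts of mir-181c.

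To place these ranges, other pairs of neighbouring miRNA genes were measured in the same way. Of 21 listed pairs, 16 were found within 10000 bases on 1 strand and had counts in every library. Another 3 had no position under their names and were left out. These were mir-143 with mir-145a (log2 range 0.68), mir-195a with mir-497a (1.52) and mir-30d with mir-30b (1.93). Also left out was mir-193a with mir-365-1, which had the widest range (4.11). It was not within the limit of 10000 bases, which was set after values were seen. The pair of mir-144 with mir-451a had a library at 0 counts. The ratios of the 16 pairs ranged over 0.17 to 2.70 on the log2 scale with a median of 1.39. The range of 2.46 for mir-181a-1 and mir-181b-1 was exceeded by 1 of the 16, mir-199a-2 with mir-214 (2.70). The range of 1.82 for mir-181a-2 and mir-181b-2 and that of 1.60 for mir-181c and mir-181d were each exceeded by the same 4 of the 16, which besides that pair were mir-29c with mir-29b-2 (2.38), mir-24-2 with mir-27a (2.31) and mir-322 with mir-503 (2.00). The pair of mir-30d with mir-30b, left out of the 16, exceeded both as well. Pairs whose ratio varied this much across these 6 libraries were therefore also found outside the mir-181 clusters. Of the entries in these pairs, mir-199a-2, mir-29b-2 and mir-24-2 have a copy, listed as mir-199a-1, mir-29b-1 and mir-24-1. As for mir-181a and mir-181b, reads of the copy may enter such a ratio, so it need not reflect the mates alone. The pair of mir-322 with mir-503 has no such numbered copy.

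The copies on different chromosomes behaved unlike each other. mir-181a-1 over mir-181a-2 was 1.31 in OB and between 1.10 and 1.15 in the other 5 libraries, a range of only 1.19-fold. mir-181b-1 over mir-181b-2 was 0.990 in OB and 0.883 in BM, 1.37 and 1.32 in the vesicles without FFSS, and 1.59 and 1.79 with FFSS, a range of 2.03-fold. The mir-181b copies were thus about equal in the cells, while mir-181b-1 was ahead in all 4 EV libraries and most so after FFSS. The copies give the same miR-181b-5p, and the table does not say which reads, 5p, 3p or loop, carry the difference between them.

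**Figure D3:**
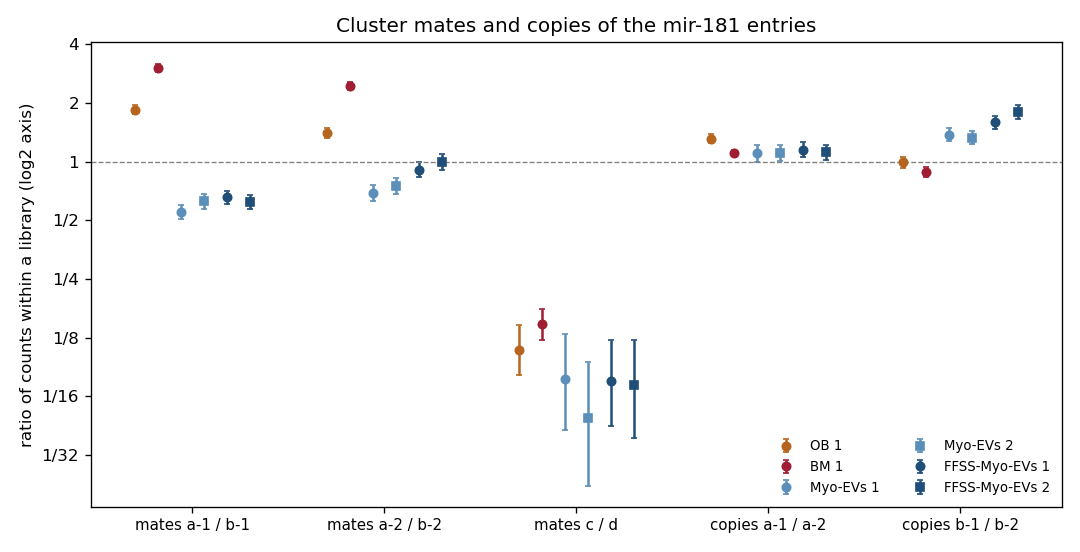
Ratio of counts within a library (log2 axis) for the 3 pairs of cluster mates and the 2 pairs of copies, with exact 95% intervals for counting error only. The mate ratios a-1/b-1 and a-2/b-2 were above 1 in OB and BM and below 1 in the 4 EV libraries, c/d was between 0.0484 and 0.146, and b-1/b-2 was highest in the FFSS-Myo-EV libraries at 1.59 and 1.79.

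With FFSS, the family's total differed by less than the spread between replicates, and 1 member, mir-181b-2, fell, a call that was lost under other scalings. The counts of both EV groups were compared by the quasi-likelihood test of edgeR after TMM scaling, with Benjamini-Hochberg adjustment over the 354 entries whose mean normalized value reached 10. All 6 members were tested, 0 were called higher and 1 was called lower at an adjusted p under 0.05. Over all entries tested, 12.1% were called higher and 18.4% lower, so 1 of 6 is near the background. With the authors' scaling constants the split was 54 entries higher and 39 lower, with library totals it was 49 and 46, and with limma 57 and 37, against 43 and 65 with TMM. In either direction 30.5% of all entries were called, and by unadjusted p the same 1 member was below 0.05, where 39% of all entries were (23.4% lower). The median log2 fold change was 0.0041 over the members and -0.025 over all entries tested. The family sum was 5047 ± 456 in Myo-EVs and 5101 ± 153 in FFSS-Myo-EVs (SD, n = 2 each), a ratio of 1.01.

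On the scale of TMM-adjusted CPM, the counts scaled by library total and TMM factor, mir-181b-2 was at 437 and 450 in the vesicles without FFSS, and 353 and 320 with FFSS. Both FFSS-Myo-EV libraries lay below both Myo-EV libraries, and the log2 fold change was -0.40 (SE 0.13, 95% interval -0.65 to -0.15, edgeR adjusted p = 0.00821). The SE, interval and p rest on a spread pooled over the tested entries, not on the replicates of mir-181b-2 alone. On the authors' scaling the means were 1249 ± 96.8 and 1029.9 ± 18.6 (SD, n = 2 each), a ratio of 0.825. The call was lost with the authors' scaling constants (-0.28, edgeR adjusted p = 0.160), with library totals (-0.32, edgeR adjusted p = 0.104) and with limma on log2 values (-0.28, limma adjusted p = 0.180), and the direction was kept. It was also lost without either FFSS-Myo-EV library (edgeR adjusted p = 0.0938 and 0.456, where the lone library is assumed to vary like the other group), and when the copies were summed into mir-181b (-0.16, edgeR adjusted p = 0.396).

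The other 5 members did not pass the test. mir-181b-1 had a log2 fold change of -0.08 (SE 0.13, edgeR adjusted p = 0.732), mir-181a-1 of 0.04 (SE 0.13, edgeR adjusted p = 0.881), and mir-181a-2 was at 0.00067 (edgeR adjusted p = 0.999). For these 3 abundant entries the 95% intervals with TMM scaling ended at -0.32 and 0.29, so a change of the size seen in mir-181b-2 with TMM lay outside each of them. This holds for TMM only. With the authors' scaling constants mir-181a-1 was at 0.16 and mir-181b-2 at -0.28, and intervals were not computed there. The interval for mir-181d, -0.38 to 0.39, was wider, and that for mir-181c, -0.61 to 1.08, was widest, since it had 9 to 18 counts per EV library. On the authors' scaling, 2 of the 6 members had groups that did not overlap, as had 60.5% of all entries tested, mir-181b-2 with FFSS-Myo-EVs below (23.7% of all entries) and mir-181c with FFSS-Myo-EVs above (36.7%). On the TMM scale it was again 2 of 6 (58.5% of all entries), both below, mir-181b-2 and mir-181b-1 (32.5%), and no member lay above (26%). The TMM-adjusted CPM of mir-181b-1 was 601 and 596 without FFSS and 562 and 573 with it.

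**Figure D4:**
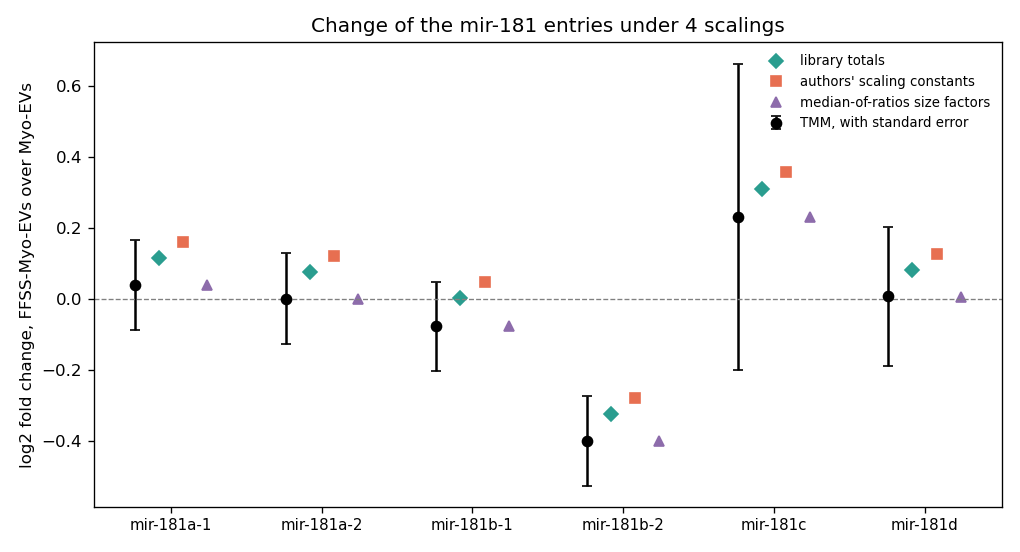
Log2 fold change of FFSS-Myo-EVs over Myo-EVs (2 libraries each) for the 6 mir-181 entries under 4 scalings, with bars of 1 standard error on the TMM values. mir-181b-2 was below 0 under all 4 scalings (-0.40 with TMM), the authors' constants shifted every entry upwards by 0.12 against TMM, and mir-181b-1 changed sign with the scaling.

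The shift of mir-181b-2 can also be expressed against its cluster mate and its copy. These ratios hold the same mir-181b-2 counts as the test and are not separate support. The mean log2 ratio of mir-181a-2 to mir-181b-2 was -0.48 ± 0.08 in Myo-EVs and -0.07 ± 0.09 in FFSS-Myo-EVs (SD, n = 2 each), a difference of 0.40. Against its copy, the mean log2 ratio of mir-181b-1 to mir-181b-2 was 0.43 ± 0.04 without FFSS and 0.76 ± 0.12 with it (SD, n = 2 each), a difference of 0.32. For mir-181a-1 over mir-181b-1 the difference was 0.12 and the libraries overlapped. In the 16 other pairs of neighbours the median size of this difference was 0.21, and 4 of the 16 exceeded that of mir-181a-2 and mir-181b-2, namely mir-29c with mir-29b-2, mir-24-2 with mir-27a, mir-34b with mir-34c and mir-15a with mir-16-1. Among the pairs left out for lack of a position, mir-30d with mir-30b also exceeded it, at -0.59. So did mir-193a with mir-365-1, left out as not neighbouring, at -0.95. With 2 libraries against 2, an exact two-sided permutation test cannot give a p below 0.333, and these ratios are given as descriptions.

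Other miRNAs moved with FFSS in the same libraries. Of 5 entries listed for their part in blood cells beside mir-181, 2 were tested, and mir-155, a regulator of immune cells, was called higher with a log2 fold change of 0.70 (edgeR adjusted p = 9.65e-07), whereas mir-146a was at 0.10 (edgeR adjusted p = 0.678). Over all tested entries, 12.1% were called higher. Of the 5 bone marrow markers, only mir-451a was tested, with values of 3.0 and 4.8 without FFSS, and 25.9 and 17.7 with FFSS. It reached the mean of 10 needed for testing only through the FFSS-Myo-EV libraries, so its call is not counted as support. The sum of the 5 bone marrow markers was 15 and 10.8 in the vesicles without FFSS, and 50.9 and 43.2 with FFSS. The part of this difference in the mir-181 values was not tested. In the EV libraries mir-223 was at 0 to 7.0 and mir-142a at 1.2 to 8.9, against 9710 and 9067 in BM.

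Of 15 entries listed for muscle differentiation, 13 were tested, 2 were called higher and 6 lower, with a median log2 fold change of -0.07, beside 12.1% and 18.4% of all entries. Both mir-26a copies were called higher, at 0.66 (edgeR adjusted p = 5.65e-05 for mir-26a-1). Their values were nearly equal (12482.4 and 12508.3 in FFSS-Myo-EV replicate 1), so the 2 calls may not be separate results. Called lower were mir-133b at -1.75 (edgeR adjusted p = 0.000139), mir-133a-1 and mir-133a-2, mir-24-1 and mir-24-2, and mir-503, which ended the range at -0.40 (edgeR adjusted p = 0.0284). The calls lower thus also count copies, of mir-133a and mir-24, as separate entries, although copies may share reads. The mir-133 entries, known from muscle cells, had values of at most 45.2 in any EV library. mir-133a-1 was at 19.1 and 19.2 without FFSS, and 10.0 and 4.4 with FFSS. mir-133a-2 was at 17.1 and 20.4 without FFSS, and 6.0 and 4.4 with FFSS. These 2 entries reached the mean of 10 needed for testing only through the Myo-EV libraries, so their calls are not counted as support. mir-206 was at 0.15 (edgeR adjusted p = 0.420).

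Over the 6 libraries, a few other entries followed the summed levels of the mir-181 clusters closely. Likeness was measured as the root-mean-square difference of centred log2 normalized values, among 241 entries whose mean reached 100. The sum of mir-181a-1 and mir-181b-1 was nearest to mir-107 (0.0909) and mir-30f (0.146), and the sum of mir-181a-2 and mir-181b-2 was nearest to mir-25 (0.0781) and mir-107 (0.101). mir-107 had 377 in OB, 459 in BM, 279 and 353 in the vesicles without FFSS, and 311 and 331 with FFSS, so that it too was highest in BM. mir-25 had 4337 in OB, 6641 in BM, 3735 and 4302 in the vesicles without FFSS, and 3475 and 3333 with FFSS. The sum of mir-181c and mir-181d was nearest to mir-194-2 (0.143) and mir-15b (0.146). A sum can differ from its members, since Myo-EVs over BM was 0.368 for mir-181a-1 and 1.89 for mir-181b-1. Likeness to single members was not measured. The likeness values describe 6 libraries of 4 kinds that share the authors' scaling, and they carry no test.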

How the data were processed

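Small RNA of 6 libraries (90 ng of total RNA and 12 PCR cycles per library) was sequenced and matched to miRBase by the authors in CLC Genomics Workbench. The deposited table holds, for each precursor entry and library, a count without normalization and a normalized value, which is a signal scaled by the authors from the counts with 1 constant per library. The labels name the genome build mm10. The miRBase release and the treatment of reads matching several precursors are not given in the sources used here.

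Counts of the 4 EV libraries were tested with edgeR 4.0.16 in R 4.3.3 (TMM factors, quasi-likelihood test, Benjamini-Hochberg adjustment over 354 entries with a mean normalized value of at least 10), without covariates, and the test was checked on simulated counts. The common dispersion was 0.0108, and both groups have 2 libraries. The prior degrees of freedom were infinite, so the quasi-likelihood spread was pooled over the tested entries. OB and BM have 1 library each and entered no test. Intervals of levels and count ratios are exact (Clopper-Pearson, 95%) and take in counting error alone, since PCR copies without molecular identifiers are not independent molecules. For sums and ratios of gene copies they also take each count as a separate read, which is not known. The 95% intervals of log2 fold changes are of another kind. They are normal intervals from the edgeR estimate and its standard error, which was derived from the F statistic. Ratios and likeness were computed with pandas 2.3.3 and scipy 1.17.1 in Python 3.11.15, and log2 values for likeness and limma 3.58.1 used a pseudocount of 1. Ratios between conditions used the 443 entries with a mean of at least 10 over all 6 libraries.

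The entries named are the 6 members, the 2 entries nearest to each cluster sum, and members of the haematopoietic, muscle and marker lists; mir-142 was matched as mir-142a. The single other pairs of neighbours were named after their values were seen, and the limit of 10000 bases was then set for them, which left out mir-193a with mir-365-1. A further 3 listed pairs had no position under their names and were left out too, as was 1 pair with a library at 0 counts. The members and lists were chosen with earlier results of these data known. Sequences and positions are from RefSeq (GRCm38.p6) and gene context from GENCODE M21. DESeq2 1.42.0, limma, other scalings, other filters, summed copies, the replicate block and the omission of single EV libraries were the alternatives.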

Additional observations from a re-analysis of the deposited data

How the results depend on the processing

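Between FFSS-Myo-EVs and Myo-EVs, edgeR called 30.5% of the tested entries (108 of 354), and this share was 12.4% to 37.3% over the fits without 1 EV library, with 19 to 60 entries called higher (43 with all libraries) and 21 to 72 lower (65 with all libraries). It was 12.4% without FFSS-Myo-EV replicate 1, 12.7% without FFSS-Myo-EV replicate 2, and 11.9% with no filter, where many more low entries were tested. Entries called lower numbered 39 with the authors' scaling and 37 with limma. Against TMM, FFSS-Myo-EVs over Myo-EVs was shifted by 0.12 on the log2 scale with the authors' scaling, by 0.08 with library totals and by -0.00024 with median-of-ratios factors. Members called lower numbered 0 with library totals, 0 with the authors' scaling, 0 with limma, and 0 to 1 when a library was left out. mir-181b-2 stayed called in 5 of 8 other settings (adjusted p 0.00626 to 0.180) and 2 of 4 leave-outs (0.00541 to 0.456), with log2 fold changes from -0.47 to -0.28.

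The sign of members that did not pass the test turned in some settings. mir-181a-1 was at -0.012 with no filter and at -0.041 to 0.22 over the leave-outs. mir-181a-2 was at -0.051 with no filter, at -0.00028 with median-of-ratios factors and at -0.077 to 0.18 over the leave-outs. mir-181b-1 was at 0.0035 with library totals, at 0.048 with the authors' scaling, at 0.048 with limma and at -0.070 to 0.017 over the leave-outs. mir-181d was at -0.045 with no filter and at -0.11 to 0.14 over the leave-outs. The cause was not tested.

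For the family sum, BM over OB was 1.54 by library totals and 1.12 after median-of-ratios scaling, and Myo-EVs over OB was 0.717 after the latter. Myo-EVs over BM was 0.566 by library totals. FFSS-Myo-EVs over OB was 0.854 by library totals and 0.675 after median-of-ratios scaling, and FFSS-Myo-EVs over BM was 0.555 and 0.605, respectively.

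With the replicate number as a block, 31.1% of entries were called (44 higher and 66 lower) and mir-181b-2 was at -0.40 (edgeR adjusted p = 0.0123), and no member changed its call. Same-numbered libraries shared only a number, with a correlation of 0.21 between their deviations over 2 pairs, and no source states a pairing. Depth limited mir-181c above all, and OB and BM have no replicate error.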
